A study of Mus musculus with 4 samples.

Results

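Proteasome genes were taken as all mouse genes whose symbol begins with Psma, Psmb, Psmc, Psmd or Psme followed by a number. The annotation holds 51 of them, of which 43 were assembled in at least 1 library, among 11513 genes named in the series. The other 8 were Psma8, Psmb11, Psme2b and 5 processed pseudogenes. Psma8 has 2 or more annotated introns and had no assembled transcript in any library, while the other 7 have fewer than 2 annotated introns, could not be named by introns and were not analysed here. Of the 43, 2 carry the symbol pattern without being subunits, assembly chaperones or activators of the particle: Psmc3ip, a cofactor of meiotic recombination, and Psme3ip1, a binding partner of the activator Psme3.

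The proteasome is the barrel-shaped protease that breaks down proteins tagged with ubiquitin. Rings of alpha subunits close the ends of the barrel and rings of beta subunits, some of them catalytic, line its inside. A cap sits on either end: its base holds a ring of ATPases that unfold the substrate, and its lid removes the ubiquitin chain. In skeletal muscle the system is known for breaking down contractile proteins during wasting, and in cells that present antigen a set of interferon-inducible beta subunits takes the place of the usual catalytic ones.

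Polyadenylated RNA of C2C12 cells, a mouse myoblast line labelled as strain C57BL/6, was sequenced as paired ends. The growth library (-24 h) came from cells dividing in high serum, and the other 3 came from cells taken 60 h, 120 h and 168 h after confluent plates were moved to low serum, which starts differentiation into myotubes. Each time point had 1 library and no replicate, so no difference below has a test and every ± is the distance to the deposited confidence limits, which cover counting error only. The libraries held 28513976, 48228887, 24488681 and 43845262 fragments, of which 86.9% to 89.7% lay in assembled transcripts. No step that marks the strand is described in the protocols, and genes that overlap on opposite strands cannot be told apart by their fragments. All 7 markers of myoblasts and myotubes were assembled in every library, with a summed level of 704 FPKM in growth and 8562, 12171 and 11667 FPKM after the switch. Acta1 made up most of each later sum, with 5150, 7931 and 7219 FPKM. Des, Myog, Myh3 and Ckm also stood above growth in every later library. Myod1 went from 193 ± 3.86 FPKM in growth to 86.1 ± 2.06 at 168 h, and Myf5 stood at 13.6 ± 1.30 and 13.4 ± 1.06. FPKM is the authors' value per transcript length and library size.

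Each gene was measured by the sum of FPKM over its transcripts and by the FPKM through its introns, found by adding the transcripts that share an intron and taking the median over the introns of the gene. The second value is given below unless the sum is named, because a gene assembled in pieces is counted more than once in a sum. A gene was said to have risen or fallen where both measures differed by 2-fold or more between 2 libraries, after adding 1 FPKM to each value, with intervals apart and 1 FPKM or more in the higher library. In 33 members at least 80% of the annotated intron chain was assembled in all 4 libraries; these are called whole below. Of the other 10, 8 share over 5% of their 50-base words with other annotated genes, against 2 of the 33 whole ones (Psma4 with 11.6% and Psme1 with 5.47%), so reads of those members can be split between copies.

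Most proteasome genes were lower at 168 h than in growth, the alpha ring and the lid by more than the beta ring and the base. The log2 ratio was below 0 in 29 of the 33 whole members (24 after the rescaling described below), with a median of -0.44, against -0.14 over all 10835 genes with a value. Of those 10835 genes, 6076 lay below 0, and 5308 after rescaling. By class the median was -1.01 for the 5 whole alpha subunits, -0.73 for 7 lid subunits, -0.40 for 7 base subunits and -0.32 for 5 constitutive beta subunits. The libraries' scale moves these values: rescaling by the median ratio over genes shifted the median of all genes from -0.14 to 0.02. Relative to the median of all genes, the alpha ring stood at -0.87 as deposited and -0.84 rescaled, the lid at -0.59 and -0.56, the base at -0.26 and -0.23, and the beta ring at -0.18 and -0.15. The differences between classes have no replicate behind them and were not tested. Fewer cells that express a gene and less of its RNA per cell cannot be told apart in these samples.

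By count, 7 of the 43 assembled members fell from growth to 168 h and 3 rose, where 14.0% of all 11410 genes compared fell and 11.2% rose, so the share of members past the rule was near that of all genes. After rescaling 3 members fell and 3 rose, where 1253 of all 11410 genes fell and 1498 rose. The 7 were Psma1, Psma3, Psma4, Psma6, Psmd5, Psmd6 and Psmc3ip. The 3 that rose were Psma5, Psmb8 and Psmb9, none of which was assembled in growth, so no fold is given for them. At a 1.5-fold rule 17 members fell, against 24.2% of all genes. Among the whole members as deposited, 21 of 33 had their highest level in growth and 21 had their lowest at 168 h. This order was not counted over all genes, and it depends on the scale. After rescaling, 17 of the 33 stood above growth at 60 h, as did 5831 of all 10905 genes with a value.

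**Figure D1:**
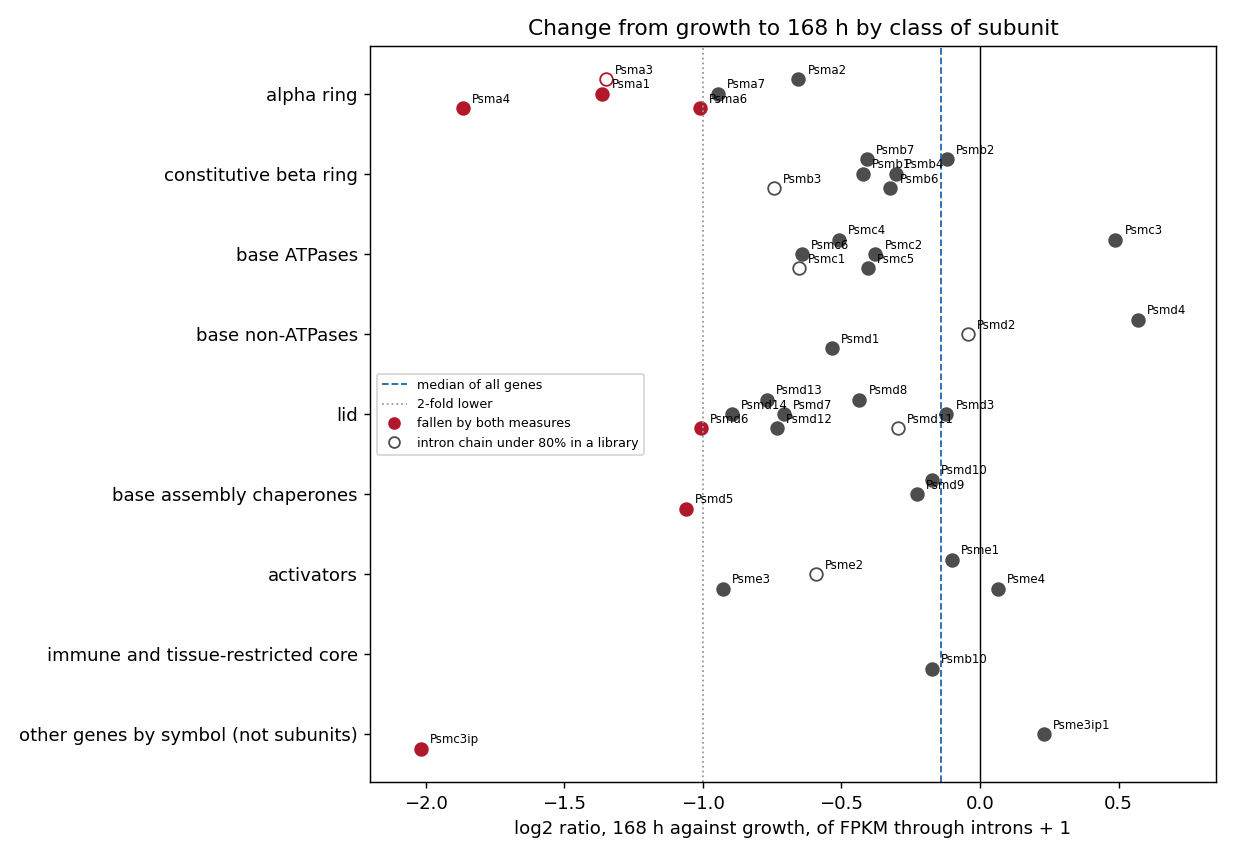
Log2 ratio of FPKM through introns (plus 1) at 168 h against growth for each member assembled in both libraries, by class. Each point is 1 gene, red where it fell by both measures, open where under 80% of its intron chain was assembled in a library, and the dashed line is the median of all genes at -0.14. The alpha subunits run from -1.87 (Psma4) to -0.66 (Psma2), Psmc3ip lies farthest left at -2.02, and Psmc3 and Psmd4 lie to the right at 0.49 and 0.57.

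The sequences before the starts of 5 members are printed here because they carry the extremes of this pattern: Psma1, Psma4 and Psmd6 fell, Psmd4 had the highest ratio of the members assembled in growth, and Psmb8 was assembled only after the switch. They are the 250 bases before the RefSeq start (GRCm38.p6), 5′ to 3′ on the gene's strand, with matches to any of 5 motifs in capitals on either strand: CCAAT, TGACNNNGC (an antioxidant-type element), GAAA followed after any 2 bases by GAAA (an interferon-type element), TTCNNNGAA (a STAT-type element) and CANNTG (the E-box).
Psma1, chr7:114276117-114276366, reverse strand: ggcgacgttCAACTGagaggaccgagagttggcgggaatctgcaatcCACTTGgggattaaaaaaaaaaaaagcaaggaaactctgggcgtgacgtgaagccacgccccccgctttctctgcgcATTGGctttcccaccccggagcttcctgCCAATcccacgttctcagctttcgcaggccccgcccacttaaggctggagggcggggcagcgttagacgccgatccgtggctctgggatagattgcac
Psma4, chr9:54950609-54950858, forward strand: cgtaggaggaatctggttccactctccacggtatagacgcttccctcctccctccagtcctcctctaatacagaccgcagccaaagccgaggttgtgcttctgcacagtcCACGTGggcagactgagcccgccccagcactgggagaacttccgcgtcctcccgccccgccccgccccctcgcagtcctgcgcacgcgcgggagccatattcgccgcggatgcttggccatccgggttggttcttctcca
Psmd6, chr14:14120946-14121195, reverse strand: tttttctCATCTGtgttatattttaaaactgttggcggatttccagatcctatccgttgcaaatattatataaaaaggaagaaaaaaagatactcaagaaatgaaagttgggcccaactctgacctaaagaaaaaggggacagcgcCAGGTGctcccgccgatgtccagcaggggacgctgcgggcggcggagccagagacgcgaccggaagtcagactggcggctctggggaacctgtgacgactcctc
Psmd4, chr3:95042615-95042864, reverse strand: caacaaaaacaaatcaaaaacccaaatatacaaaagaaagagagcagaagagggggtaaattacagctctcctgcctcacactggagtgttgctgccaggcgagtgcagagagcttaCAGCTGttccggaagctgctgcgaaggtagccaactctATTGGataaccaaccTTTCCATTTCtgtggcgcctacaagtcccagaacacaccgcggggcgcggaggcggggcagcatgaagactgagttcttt
Psmb8, chr17:34197945-34198194, forward strand: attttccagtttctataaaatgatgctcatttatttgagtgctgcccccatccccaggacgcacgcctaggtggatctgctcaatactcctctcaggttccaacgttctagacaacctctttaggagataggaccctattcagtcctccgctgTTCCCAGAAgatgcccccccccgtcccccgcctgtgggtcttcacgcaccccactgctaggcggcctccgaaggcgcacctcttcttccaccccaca

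The RefSeq table held 43 windows for 39 of the 51 symbols. CCAAT was found in 37.2% of the members' windows and in 33.8% of all 32851 windows. TGACNNNGC was in 11.6% and 10.2%, the GAAA pair in 6.98% and 2.98%, TTCNNNGAA in 2.33% and 7.02%, and CANNTG in 55.8% and 66.2%. In the windows shown, Psma1 held CCAAT at -126 and -98 and Psmd4 at -95. The single TTCNNNGAA of the members lay in Psmb8, at -97, and the GAAA pair was found in Psmd4 at -80, Psmb3 at -163 and Psmd9 at -159. TGACNNNGC was found in Psmb5, Psmb6, Psmc6, Psmd9 and Psmd12. A match is only a match of letters, and the 5 genes with TGACNNNGC belong to 4 classes.

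Of the alpha ring, whose subunits gate the entrance of the barrel, the 5 whole members all had their highest level in growth. Psma4 (chr9:54798611-54806063 as the files give it; neither labels nor headers state the genome build) stood at 84.3 ± 3.44 FPKM in growth, 43.0 ± 1.60 at 60 h, 31.2 ± 2.03 at 120 h and 22.4 ± 1.28 at 168 h. Each later library was lower than the one before, with no overlap of the intervals, and the end point was 3.77-fold below growth (log2 ratio -1.87). Psma1 (chr7:121408188-121419659) went through 125 ± 3.89, 70.6 ± 2.30, 65.9 ± 3.21 and 48.0 ± 2.00 FPKM, a log2 ratio of -1.36 at 168 h, with the 60 h and 120 h intervals overlapping. Psma6 (chr12:56499777-56519552) had 235 ± 5.67, 178 ± 3.79, 142 ± 4.51 and 116 ± 3.16 FPKM. Its log2 ratio of -1.01 lies at the edge of the rule and was -0.81 after rescaling, short of a call.

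Psma7 and Psma2 were lower at 168 h without passing the rule. Psma7, the most abundant alpha transcript per length, stood at 387 ± 7.66, 238 ± 4.62, 246 ± 6.61 and 200 ± 4.44 FPKM, so most of its difference lay between growth and 60 h. Psma2 stood at 115 ± 5.41, 90.4 ± 3.81, 67.1 ± 3.51 and 72.4 ± 4.68 FPKM. The last pair of Psma2 intervals overlaps. The lowest whole alpha subunit was Psma4 in every library, and the ratio of Psma7 to it was 4.59 in growth and 8.95 at 168 h.

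The other 2 alpha genes were assembled in pieces. Psma3 was found at 8.51 ± 2.14, 4.11 ± 1.12, 10.5 ± 2.58 and 2.73 ± 0.815 FPKM, which put it above the rule at 120 h against 60 h and below it at 168 h against 120 h and against growth. Its calls at 120 h against 60 h and at 168 h against growth were lost after rescaling. The call at 168 h against growth was also lost when fragments were taken over the union of exons. Psma5 was not assembled in growth and had 5.03 ± 1.05, 18.6 ± 3.75 and 11.9 ± 2.21 FPKM later, past the rule as risen at 60 h, at 120 h against 60 h and at 168 h against growth. Of the annotated chain of 8 introns of Psma5 at most 2 were found in a library, and 49.1% of its words occur in other genes (15.4% for Psma3). Both genes stood below the 5 whole alpha subunits in every library; the part of copies in that was not tested.

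**Figure D2:**
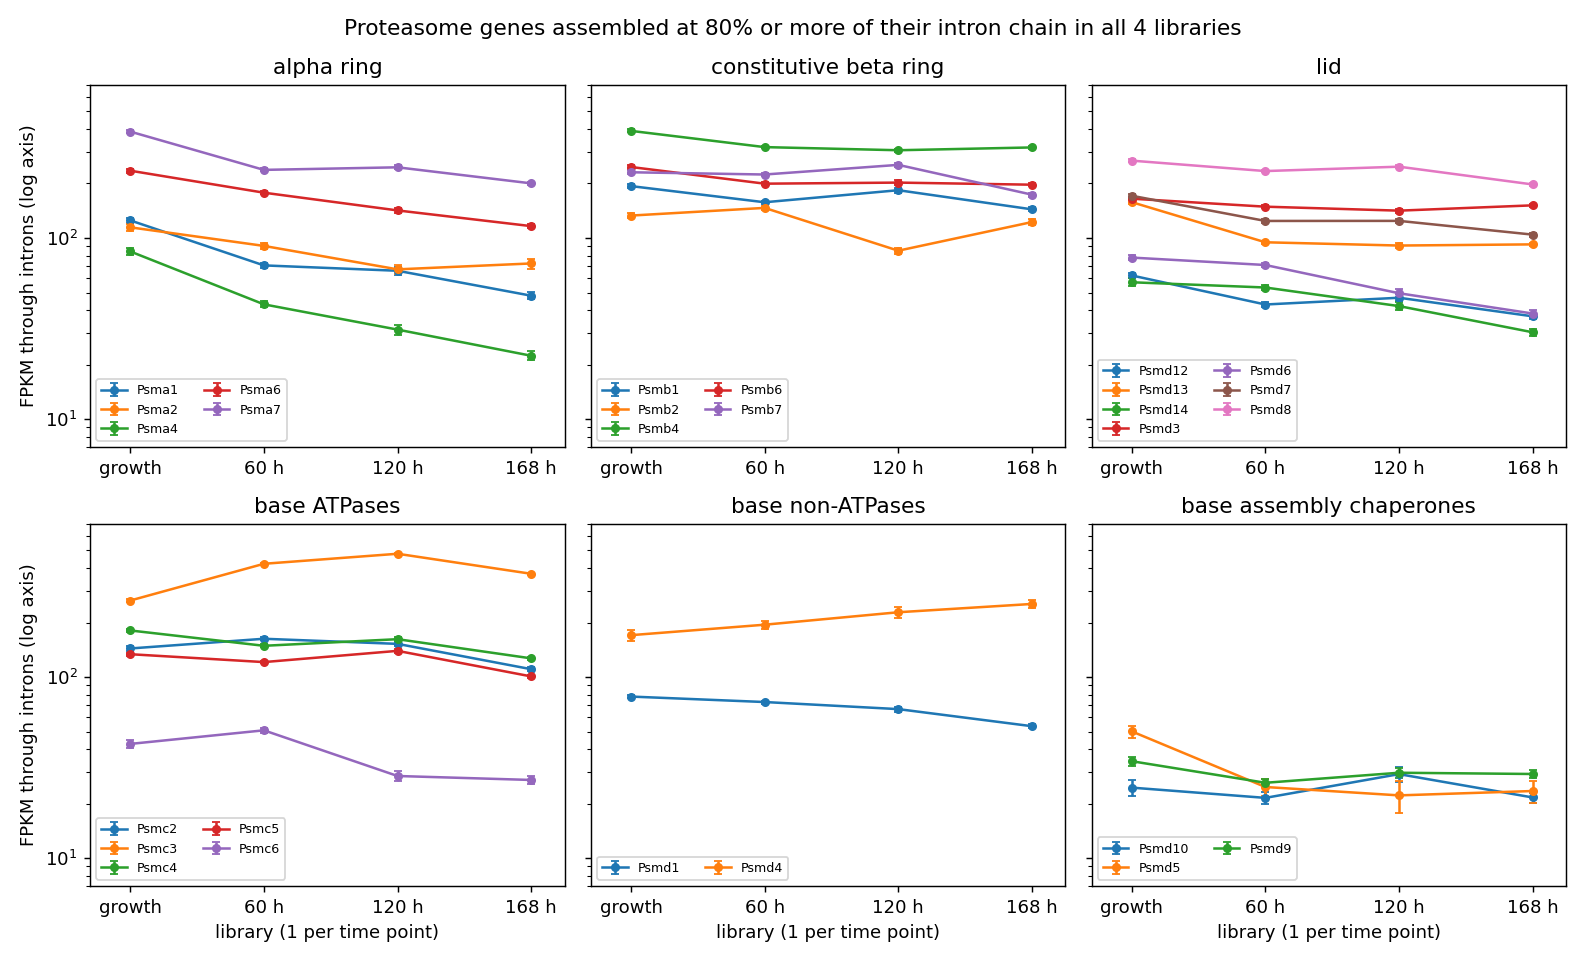
FPKM through introns (log axis) of the whole members of 6 classes in the 4 libraries, 1 per time point; error bars are the distance to the deposited limits. The alpha and lid lines slope down from growth, the beta lines are flatter, and Psmc3 and Psmd4 end above their growth level, at 372 and 253 FPKM.

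The constitutive beta ring, which carries the proteolytic sites, differed less between libraries, and none of its 5 whole members passed the rule in any comparison. Their log2 ratios at 168 h against growth ran from -0.42 (Psmb1) to -0.12 (Psmb2). Psmb6, the caspase-like catalytic subunit, stood at 247 ± 5.53, 200 ± 4.03, 202 ± 5.72 and 197 ± 4.23 FPKM, with the 3 libraries after the switch overlapping. Psmb7, the trypsin-like one, stood at 231 ± 5.76, 224 ± 4.34, 253 ± 6.56 and 173 ± 4.06 FPKM, so its lowest level was the last. Psmb2 was low in 1 library, with 133 ± 4.07, 147 ± 3.74, 85.1 ± 3.09 and 122 ± 4.8 FPKM.

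Psmb5, the chymotrypsin-like catalytic subunit, cannot be followed through introns. Its introns were assembled only at 60 h, at 24.0 ± 3.10 FPKM, and its sum was 126, 45.7 and 114 FPKM in growth, at 60 h and at 120 h, with no transcript at 168 h. It shares 54.1% of its words with other genes. Psmb3, another gene assembled in pieces, stood at 56.6 ± 10.0, 9.58 ± 3.94, 22.7 ± 4.43 and 33.4 ± 5.28 FPKM, while its sum was 115, 64.9, 141 and 60.4 FPKM. It passed the rule as risen at 120 h against 60 h, a call that was lost after rescaling.

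In the base, the ATPases did not share 1 course. At 60 h the median log2 ratio of its 7 whole members was 0.18 against growth, where the alpha ring stood at -0.70 and all genes at -0.13; relative to all genes these are 0.31 and -0.57 as deposited and 0.35 and -0.53 rescaled. Psmc3 was the highest, with 264 ± 4.75, 422 ± 4.63, 479 ± 6.97 and 372 ± 4.50 FPKM, and its 3 later libraries all lay above growth, by a log2 ratio of 0.67 at 60 h. That is short of the 2-fold rule, and 19.9% of its assembled exon bases overlap Slc39a13 on the opposite strand. Psmc6 stood at 42.7 ± 2.01, 50.8 ± 1.67, 28.4 ± 1.75 and 27.0 ± 1.31 FPKM, the lowest whole ATPase in each library. The ratio of Psmc3 to Psmc6 was 6.19 in growth and 16.9 at 120 h. Psmc2, Psmc4 and Psmc5 had log2 ratios of -0.38, -0.51 and -0.40 at 168 h against growth, with 47.6% of the assembled exon bases of Psmc5 over Smarcd2 on the opposite strand. Psmc1, assembled in pieces, stood at 43.8 ± 2.04, 38.6 ± 1.39, 48.0 ± 2.42 and 27.4 ± 1.38 FPKM.

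The non-ATPase receptor and scaffold of the base differed in opposite directions, neither passing the rule. Psmd4, a receptor for ubiquitin chains (chr3:94836467-94846514), stood at 170 ± 11.8, 195 ± 10.3, 228 ± 16.3 and 253 ± 12.0 FPKM; each library was higher than the one before, and of neighbouring libraries only 120 h and 168 h have intervals that overlap. Its log2 ratio at 168 h, 0.57, was the highest of the whole members, and 0.77 after rescaling. Psmd1, a large scaffold subunit, stood at 78.0 ± 1.84, 72.8 ± 1.36, 66.5 ± 2.01 and 53.5 ± 1.22 FPKM. Psmd2, the other scaffold, was assembled in pieces: through introns it had 89.1, 87.4, 111 and 86.6 FPKM, and by its sum 441, 362, 395 and 296 FPKM.

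As deposited, all 8 lid subunits had log2 ratios below 0 at 168 h against growth. On the same scale all 7 whole ones had their highest level in growth. After rescaling, 4 of the 7 whole ones stood above growth at 60 h, and 1 of the 7 at 168 h. Psmd6 (chr14:14944640-14953488) stood at 78.0 ± 2.78, 71.0 ± 2.09, 49.5 ± 2.49 and 38.3 ± 1.60 FPKM, falling past the rule at 168 h against growth with a log2 ratio of -1.01, and not after rescaling. Psmd14, the enzyme that cuts off the ubiquitin chain, stood at 57.0 ± 2.92, 53.3 ± 1.70, 42.1 ± 2.13 and 30.2 ± 1.36 FPKM, a log2 ratio of -0.90. By its sum, growth held 113 FPKM, because 2 pieces of its chain, of 8 and 2 introns, were counted there and a single chain of 11 introns in the other libraries. Psmd3, the lid scaffold, differed least, with 165 ± 3.27, 149 ± 2.40, 142 ± 3.30 and 151 ± 2.56 FPKM. Psmd13, Psmd12 and Psmd7 lay between, at -0.77, -0.73 and -0.71, and Psmd8 at -0.44.

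Psmd11, whose product is a lid scaffold too, was the 1 lid gene assembled in pieces. Its levels of 15.7 ± 2.41, 4.16 ± 0.713, 13.2 ± 3.77 and 12.6 ± 0.792 FPKM put 60 h alone below the others, a fall past the rule at 60 h against growth that was lost after rescaling. Of its annotated chain of 13 introns 4 were assembled in growth, 8 at 60 h and 10 in each later library.

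Step by step, the rule was passed by few members. At 60 h against growth 1 rose (Psma5) and 2 fell (Psmd11 and Psmc3ip), where 7.22% of all genes rose and 9.0% fell; rescaled, 1 rose and 0 fell, where 9.17% and 6.16% of all genes did. At 120 h against 60 h 3 rose (Psma3, Psma5 and Psmb3) and 1 fell (Psme2), against 2.56% and 1.77%, and rescaling left 1 risen and 2 fallen, against 1.92% and 2.40%. At 168 h against 120 h none rose and 1 fell (Psma3), against 1.81% and 2.38%. With the exception of Psmc3ip, each member called in these 3 steps was assembled in pieces or not at all in 1 of the libraries. Of the 33 whole members 0 passed the rule at 120 h against 60 h or at 168 h against 120 h, although rescaling brought Psmc6 past it as fallen at 120 h.

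The base assembly chaperones, which bring the ATPases together and leave before the particle is complete, are 3 genes of which 1 passed the rule. Psmd5 (chr2:34707703-34726450) fell, from 50.1 ± 3.81 in growth to 24.7 ± 2.63, 22.2 ± 4.36 and 23.5 ± 3.30 FPKM, with the 3 libraries after the switch overlapping. Its log2 ratio was -1.06 at 168 h, short of a call after rescaling. Psmd10, also known as gankyrin, stood at 24.5 ± 2.49, 21.5 ± 1.56, 29.1 ± 2.87 and 21.6 ± 1.35 FPKM, and Psmd9 had a log2 ratio of -0.23.

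Psmd5 was assembled in 2 splicing forms. Both a chain of 9 introns and a chain of 8, which leaves out an exon of 145 bases (chr2:34722413-34722557), were assembled in all 4 libraries. The shorter chain made up 7.37% ± 4.60 of the gene's FPKM in growth, 13.8% ± 6.43 at 60 h, 31.3% ± 10.6 at 120 h and 34.7% ± 7.58 at 168 h. In FPKM the longer chain went from 46.4 ± 2.89 to 15.3 ± 2.19, and the shorter from 3.70 ± 2.48 to 8.15 ± 2.47, whose intervals overlap. The difference of the share is under the 30 percentage points set as the rule. That rule was passed by 4 to 7 members per comparison of 36 or 37 with at least 5 FPKM in both libraries, against 20.8% to 24.5% of all genes at that level, among them Psmd14, Psma2, Psma4 and Psmd1, whose chains were joined to different lengths in different libraries. Psmd4 held 2 chains of 9 introns that differ by 9 bases at 1 intron end, and the one with the longer intron took 55.7% ± 3.48 in growth and 64.2% ± 2.43 at 168 h.

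The activators bind the barrel in place of the cap. Psme3, a nuclear activator, stood at 59.0 ± 1.61, 46.8 ± 1.09, 42.7 ± 1.61 and 30.5 ± 0.922 FPKM, with a log2 ratio of -0.93 that did not pass the rule. Psme1, interferon-inducible, stood at 19.3 ± 1.45, 20.2 ± 1.92, 18.7 ± 2.85 and 17.9 ± 2.57 FPKM, all overlapping, with 40.9% of its assembled exon bases under Emc9 on the opposite strand. Psme2, its partner in the same ring, was found at 1.49 ± 0.674, 2.60 ± 0.762 and 0.651 ± 0.532 FPKM in growth, at 60 h and at 168 h and was not assembled at 120 h. Psme2 stood at 3.64% to 12.8% of Psme1. It shares 28.3% of its words with other genes, and the annotation holds the copy Psme2b; the part of copies in its low level was not tested. Psme4, the largest, stood at 10.4 ± 1.98, 10.7 ± 1.81, 9.11 ± 0.508 and 10.9 ± 0.401 FPKM.

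Of the immune subunits, 2 were assembled only after the switch and at low levels. Psmb8 (chr17:34336182-34338246) was not assembled in growth and had 0.425 ± 0.380, 0.783 ± 0.639 and 1.34 ± 0.676 FPKM later, with a sum of 2.67 FPKM at 168 h. Psmb9 (chr17:34320559-34324280) was likewise not assembled in growth and had 0.546 ± 0.546, 0.793 ± 1.12 and 1.37 ± 0.547 FPKM. Through introns the 3 later intervals of each gene overlap, so the order of these levels is not resolved at this depth. By the sum, Psmb8 had 0.425 ± 0.380 FPKM at 60 h and 2.67 ± 0.960 at 168 h, with intervals apart. That sum adds 2 transcripts at 168 h and holds 1 at 60 h. Both calls at 168 h against growth were lost when 5 FPKM were asked of the higher library. Psmb9 stood at 0.273% ± 0.274, 0.392% ± 0.555 and 0.694% ± 0.278 of its constitutive counterpart Psmb6. At 60 h Psmb8 stood at 1.77% ± 1.60 of Psmb5.

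Psmb10 was the 1 immune subunit assembled whole in every library, at 11.8 ± 1.91, 12.1 ± 1.59, 11.7 ± 2.86 and 10.4 ± 1.57 FPKM. All 4 of these intervals overlap, and through introns Psmb10 stood at 4.63% to 5.98% of its counterpart Psmb7. Its sum was higher, 37.7, 24.5, 27.5 and 36.6 FPKM, since a transcript of 3 introns was counted beside the chains of 6 and 7. That transcript held 50.6% to 71.6% of the gene's FPKM. By the sum, 60 h and 120 h lay below growth and 168 h with intervals apart. Psmb10 then stood at 10.9% to 21.1% of Psmb7, so its course depends on the measure. Psma8, the alpha subunit of male germ cells, was not assembled, and neither were the 3 germ cell markers Ddx4, Dazl and Sycp3. Of 3 markers of thymic epithelium, Foxn1 and Cd83 were not assembled, and Ly75 had a sum of 1.70 to 9.05 FPKM.

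**Figure D3:**
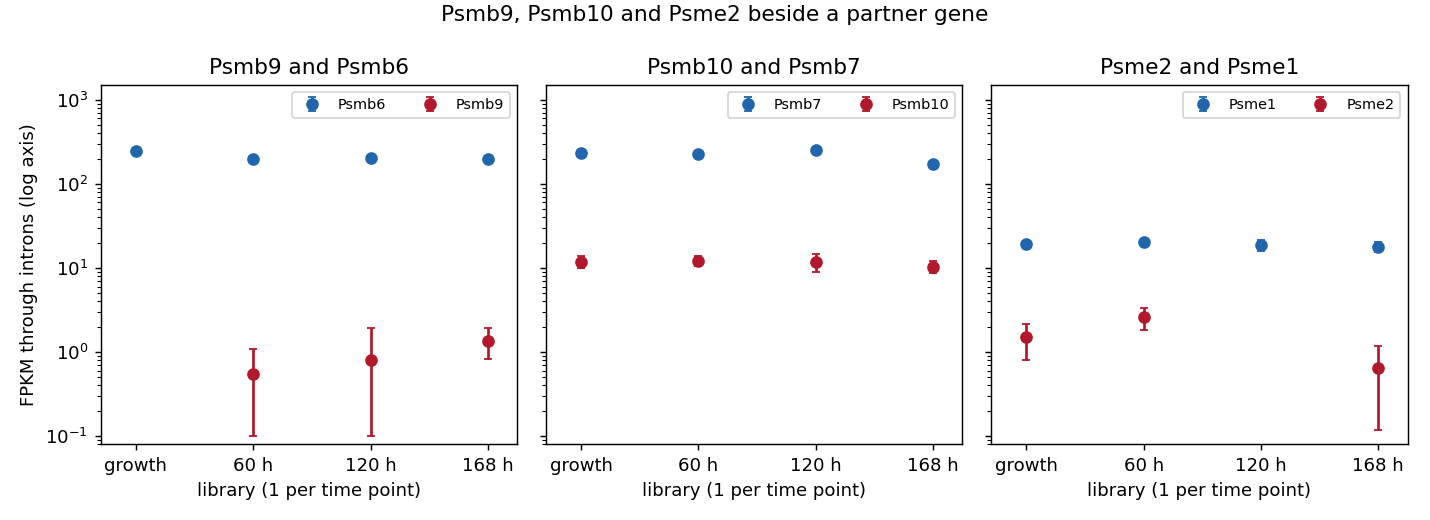
FPKM through introns (log axis) of Psmb9, Psmb10 and Psme2 (red) beside Psmb6, Psmb7 and Psme1 (blue) in the 4 libraries, with the distance to the deposited limits as error bars; bars that reach 0 are drawn to 0.1, and a missing point is a library without an assembled transcript. Psmb10 is level at 10.4 to 12.1 FPKM, and Psmb9 is absent in growth and at or under 1.37 FPKM later.

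Markers of immune cells, which carry these subunits, were low. Of 6 markers, 2 (Ptprc, found on all white blood cells, and Adgre1, of macrophages) were not assembled in any library, and the 6 together summed to 2.53 FPKM in growth and to 14.6, 10.3 and 12.8 FPKM in the later libraries. Most of that was Cd74, the invariant chain of antigen presentation, at 1.39, 8.87, 5.22 and 7.16 FPKM by its sum, the 1 marker that rose, at 60 h and at 168 h against growth. By its sum Cd68 stood at 0.308 ± 0.435, 4.15 ± 1.51, 4.83 ± 1.72 and 4.41 ± 0.529 FPKM. Cd68 had no value through introns in growth, so it could not be called against growth by both measures. Itgam was not assembled in growth and had 1.03, 0.274 and 0.912 FPKM later by its sum. Csf1r had 0.829 ± 0.627 FPKM in growth and 0.310 ± 0.439 at 168 h, with intervals that overlap. The part of immune cells in the levels of Psmb8 and Psmb9 was not tested.

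Of 18 genes of antigen presentation and interferon signalling, the partners of the immune subunits, 15 were assembled in each library. None rose or fell at 60 h, and at 120 h against 60 h 2 rose (2.56% of all genes did), both of them subunits of the peptide transporter that takes the products of the proteasome into the endoplasmic reticulum. Tap2 stood at 1.28 ± 0.807, 4.46 ± 0.392, 13.3 ± 0.965 and 25.7 ± 0.995 FPKM, each library above the one before with the intervals apart, and was also the 1 gene of the list that rose at 168 h against growth, where 11.2% of all genes did. Tap1 stood at 0.537 ± 0.620, 0.604 ± 0.178, 2.22 ± 0.552 and 3.24 ± 0.471 FPKM. Its log2 ratio at 120 h against 60 h, 1.01 through introns, lies at the edge of the rule. The calls of this list are on the deposited scale and were not recounted after rescaling. The list's median log2 ratio at 168 h was 0.34 through introns and 0.16 by the sum. Both transporter genes are neighbours of Psmb8 and Psmb9 in the mouse histocompatibility complex. The 120 h and 168 h intervals of Tap1 overlap, and by its sum it was highest at 120 h.

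Of 29 genes that assemble, regulate or partner the proteasome, 24 or 25 were assembled in each library. Nfe2l1, the transcription factor known to drive proteasome genes when the protease is impaired, rose at 60 h, from 32.6 ± 7.63 to 131 ± 3.75 FPKM, and stood at 170 ± 6.17 and 201 ± 5.33 FPKM later, a log2 ratio of 2.59 at 168 h. It was the 1 gene of the list that rose there, while 4 of 25 fell, against 11.2% risen and 14.0% fallen of all genes: Psmg1 and Pomp, assembly factors of the barrel, and Uchl5 and Usp14, the deubiquitinases that dock on the cap. These calls are on the deposited scale, and the list was not recounted after rescaling. The log2 ratios of Pomp and Usp14, -1.02 and -1.12, lie near the edge of the rule. Psmg1 stood at 45.2 ± 2.49, 23.9 ± 1.39, 21.1 ± 1.88 and 17.6 ± 1.27 FPKM, and Uchl5 at 19.1 ± 3.95, 10.1 ± 2.57, 6.37 ± 1.18 and 6.71 ± 1.97 FPKM. Rps27a, a ubiquitin fusion gene, was found at 2.03, 1.88 and 2.67 FPKM and was not assembled at 60 h, which put it past the rule as fallen at 60 h and risen at 120 h. The median log2 ratio of the list at 168 h was -0.44, with 20 of 25 genes below 0. Over all genes it was -0.14, with 6076 of 10835 below 0.

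**Figure D4:**
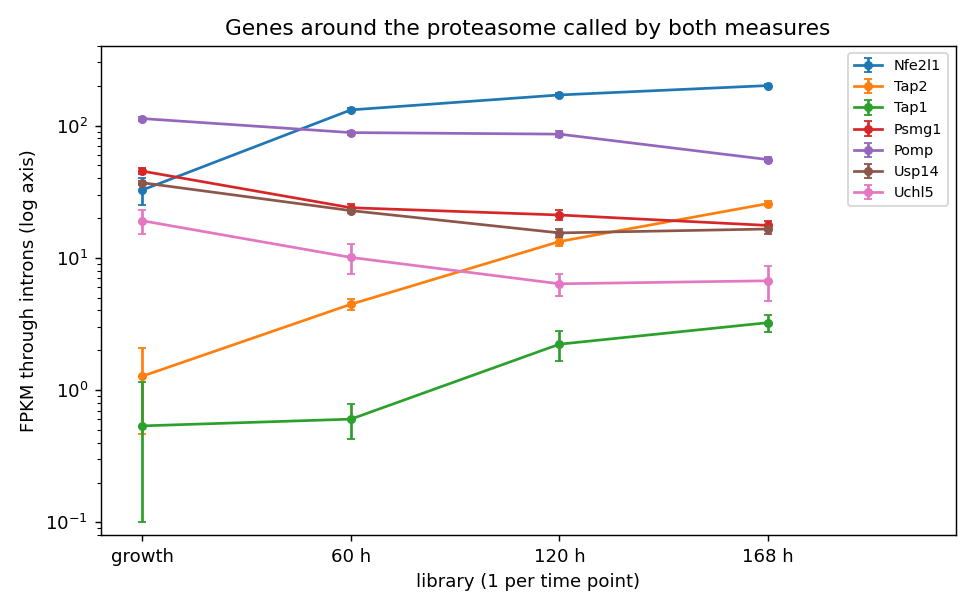
FPKM through introns (log axis) of 7 genes around the proteasome that passed the rule on the deposited scale, in the 4 libraries, with the distance to the deposited limits as error bars (the bar of Tap1 in growth, which reaches 0, is drawn to 0.1). Nfe2l1 and Tap2 climb from growth to 168 h, to 201 and 25.7 FPKM, while Psmg1, Pomp, Usp14 and Uchl5 end below their growth level.

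Of the 2 genes that are not subunits, chaperones or activators, Psmc3ip had the lowest log2 ratio of the members through introns, though not by the sum. It stood at 12.0 ± 1.98, 5.14 ± 0.697, 3.84 ± 0.849 and 2.21 ± 0.734 FPKM, a log2 ratio of -2.02 at 168 h, with the last value 4.42 FPKM by its sum. Of its assembled exon bases 49.8% overlap Mlx on the opposite strand. Psme3ip1 stood at 22.4 ± 1.30, 22.0 ± 1.01, 25.5 ± 1.55 and 26.5 ± 1.18 FPKM, so it did not go down with Psme3, whose product it binds.

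Subunits of 1 ring are built into the particle in equal number, and their transcripts were not equal per length. Over the whole alpha subunits the coefficient of variation was 65.7% in growth and 76.0% at 168 h, and over the constitutive beta subunits 39.9% and 39.7%. In the lid it was 55.7% and 68.8%, and in the base 49.8% and 81.6%. Between the ends of the ranges, the highest whole alpha subunit was 8.95 times the lowest at 168 h and the highest beta subunit 2.58 times the lowest. In every library the median of the whole members, 125, 90.4, 67.1 and 72.4 FPKM, was above that of all genes, 9.93, 8.18, 8.38 and 7.83 FPKM. Above the 90th percentile of all genes lay 21 of the 33 in growth and 17 at 168 h. The whole members were picked by an intron chain assembled in all 4 libraries, a filter that favours high levels. All genes had no such filter, so these levels are not like for like.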

How the data were processed

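Per the labels' protocols, polyadenylated RNA was fragmented before random-primed reverse transcription and paired-end sequencing. The authors deposited, for each of the 4 libraries, the assembled transcripts with exons, RPKM and confidence limits, and each line names Cufflinks. Among the tools listed in the submitters' processing notes are TopHat 1.0.13 and Cufflinks 0.8.0. RPKM is called FPKM here since it counts fragments. Neither labels nor file headers state a genome build. Fragments per library were recovered from the limits, which lie 2 square roots of the count from the value.

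Introns took a gene's name where sets of at least 2 matched 1 annotated gene (GENCODE vM21, names only) in length and distance apart: 126048 of 137519 introns. A single-exon transcript was added where at least 50% of it lay within a gene's assembled exons. Limits were combined in quadrature. Log2 ratios use a pseudocount of 1 FPKM and are smaller than true ratios at low levels. The rule was tried on simulated counts, drawn for the growth transcripts with known folds given to some genes. Assembly was the same on both sides there, so it could not check calls that rest on pieces or on a missing transcript. Python 3.11.15, numpy 2.4.6 and matplotlib 3.10.9 were used.

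The members and lists were chosen with earlier results of these data known. Values in every library are given for the immune subunits and counterparts, the activators, called members, the members with the highest and lowest ratio of each class at 168 h, and up to 4 called genes of each list. Alternatives were other gene measures, pseudocounts, minimums, scalings and fold rules. Restriction to whole members was chosen after seeing the data.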

Additional observations from a re-analysis of the deposited data

How the results depend on the processing

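With 1 library per time point no library could be left out of a comparison, and no paired analysis was possible because no group has a second sample. Of 18 calls of single members, 11 were lost under at least 1 of 12 settings and 0 reversed, counting only settings that kept the member. Of the 11, 8 were lost after median-ratio rescaling, and Psmb8, Psmb9 and Psme2 were lost at a minimum of 5 FPKM. A setting that leaves a member out was not counted as a loss. Psma5, not assembled in growth, was left out against growth where both libraries had to hold the gene. Restriction to whole members left out the calls of members assembled in pieces. The cause was not tested.

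Median-ratio rescaling moved the medians over members at 60 h against growth to -0.055 (sum) and 0.045 (introns), at 120 h against 60 h to -0.11 and -0.18, at 168 h against 120 h to -0.13 and -0.13, and at 168 h against growth to -0.31 and -0.23. It left 0 fallen at 60 h against growth, 1 risen and 2 fallen at 120 h against 60 h, and 3 fallen at 168 h against growth. Equal totals gave medians of -0.59 and -0.51 at 168 h against growth, and union values a median of -0.19 at 60 h. By the sum alone 5 fell at 60 h against growth and 5 at 168 h against 120 h (15.7% and 10.1% of all genes), where union values gave 2. The 1.5-fold rule gave 2 risen and 8 fallen at 60 h against growth (11.6% and 20.2% of all genes), 3 fallen at 120 h against 60 h (4.65%), 2 at 168 h against 120 h (6.54%) and 17 at 168 h against growth (24.2%). A minimum of 5 FPKM left 0 fallen at 120 h against 60 h and 1 risen at 168 h against growth. Members assembled in both libraries alone gave 0 risen at 60 h and at 168 h against growth, and 0 fallen at 120 h against 60 h. Whole members alone gave 0 risen and 1 fallen at 60 h against growth, 0 risen, 0 fallen and a median of -0.023 by the sum at 120 h against 60 h, 0 fallen at 168 h against 120 h and 0 risen at 168 h against growth.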
